A study of Rattus norvegicus with 4 samples.

Results

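FGF21, its coreceptor and the FGF receptors were followed as 6 genes of rat liver: Fgf21 (gene ID 170580), Klb (289625), Fgfr1 (79114), Fgfr2 (25022), Fgfr3 (84489) and Fgfr4 (25114). They were picked by gene symbol among the 31457 rows of a table of normalised mRNA values, with earlier results of these data known. Each symbol had 1 row. Poly(A)-selected liver RNA of Lewis rats (strain LEWIS, allotype RT1L) had been sequenced on an Illumina MiSeq in 4 libraries, 1 per group. The miR-27b liver came from a partially hepatectomised rat given ASCs-miR27b into a vein, the siRNC liver from one given ASCs-siRNC, the saline liver from one given saline, and the naive liver from the group labelled as naive control. In a partial hepatectomy some liver lobes are cut out and the rest grows back. The labels spell out neither ASCs, taken here to mean adipose-derived stem cells, nor siRNC, taken as a control. Age, sex and the time between surgery and collection were not stated in the labels, nor was whether 1 animal or several went into a library.

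FGF21 is a hormone of the FGF19 subfamily that the liver secretes during fasting and nutrient or cell stress. Unlike most fibroblast growth factors it binds heparan sulphate weakly, and it signals only where an FGF receptor is paired with the membrane protein beta-klotho, the product of Klb. The receptors FGFR1 to FGFR4 are receptor tyrosine kinases. In liver, FGFR4 with beta-klotho is the hepatocyte receptor of the intestinal hormone FGF15/19, which represses bile acid synthesis, whereas FGF21 acts mainly through FGFR1 with beta-klotho, best known in adipose tissue and brain. Receptor activation runs through the adaptor FRS2 to the MAPK cascade, which induces its own inhibitors of the Sprouty and DUSP families and ETV transcription factors.

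The proximal promoter of Fgf21 is shown because the gene was the member that differed most between the libraries and because it carries a known type of stress element. The 300 bases from 250 before to 50 after the gene start are those of RefSeq on build GRCr8, chr1:105221327-105221626, minus strand, printed 5′ to 3′ along the gene. Capitals mark 2 matches: ATTGCATCA, which is TGATGCAAT on the opposite strand, a form of the C/EBP-ATF response element bound by ATF4, and the palindromic E-box CACGTG. The element starts 144 bases and the E-box 54 bases before the gene start.
Fgf21: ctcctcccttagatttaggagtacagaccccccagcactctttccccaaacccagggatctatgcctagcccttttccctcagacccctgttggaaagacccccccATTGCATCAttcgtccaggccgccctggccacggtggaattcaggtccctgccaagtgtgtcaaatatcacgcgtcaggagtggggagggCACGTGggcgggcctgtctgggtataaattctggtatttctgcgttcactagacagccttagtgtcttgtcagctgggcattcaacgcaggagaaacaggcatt
On either strand TGATGCAAT was present in 0.188% and CACGTG in 6.42% of 33469 rat promoter windows of this length. The DR1 direct repeat, the element bound by PPAR alpha with RXR, searched on both strands as its consensus repeat, was not in the window, and it was in 0.0538% of all windows. None of 18 other listed PPAR alpha target genes with a window had this repeat either. Its absence from the Fgf21 window therefore says little. Klb, Fgfr2, Fgfr3 and Fgfr4 had windows in the same table, with none of the 3 motifs. Among 18 listed ATF4 target genes with a window, Nupr1, which encodes a stress-induced chromatin protein, was the one gene with the same match, 56 bases before its start. The 2 matches are given with 10 bases on each side, the motif in capitals.
Fgf21: agacccccccATTGCATCAttcgtccagg
Nupr1: aaaaggccagATTGCATCAgacagggctt
A match describes the sequence and was not tested for binding.

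The deposited values are log2 values set to a baseline of their own for each gene, so they show how 1 gene differs between libraries and not how genes rank against each other. All 6 genes were among the 9679 kept after a filter on low levels. Size factors lay between 0.956 and 1.039, so their relative depths were close, and the median log2 fold over all kept genes was between -0.03 and 0.003 in every comparison. All 8 hepatocyte markers, such as Alb, were kept. With 1 library per group no test between conditions was possible, no difference has a replicate check, and genes are called higher or lower where they were at least 2-fold apart.

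Fgf21 was lower in all 3 hepatectomised livers than in the naive liver, and among the hepatectomised livers it was highest in the miR-27b liver. Its deposited log2 values were 0 in the miR-27b, -1.64 in the siRNC, -1.30 in the saline and 1.24 in the naive library. The ratios between these values correspond to 32.0, 10.8, 14.1 and 76.9 reads in the same order, which are 33.4, 10.7, 13.6 and 78.7 normalised reads. The siRNC and saline libraries were close together, the miR-27b library lay above both, and the naive library was the highest. Reads are not whole because the values fell on steps of a small fraction of 1 read. These are few reads, so counting error is wide: the exact Poisson 95% interval was 22.9 to 47.2 normalised reads in the miR-27b, 5.5 to 19.6 in the siRNC, 7.4 to 22.6 in the saline and 62.2 to 98.5 in the naive library. The intervals of the siRNC and saline libraries overlapped, and the naive interval lay above those of the other libraries.

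**Figure D1:**
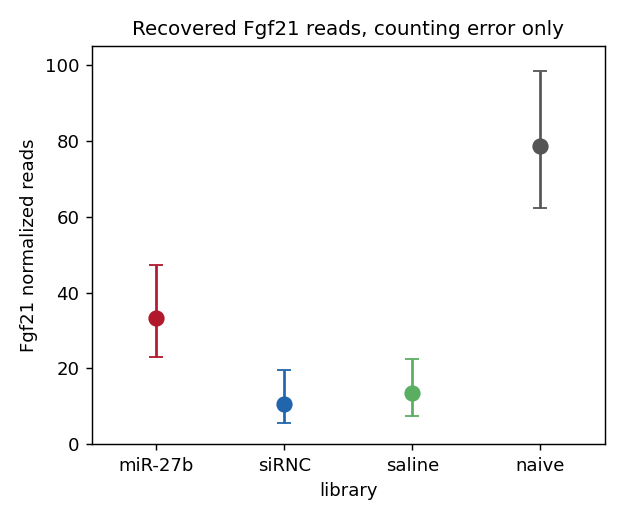
Normalised reads of Fgf21 (y axis) recovered for each library (x axis), with exact Poisson 95% intervals that cover counting error only. The naive library (78.7) stands above the miR-27b library (33.4), and the siRNC (10.7) and saline (13.6) libraries are the lowest.

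Against the naive liver, the log2 fold of Fgf21 was -1.24 in the miR-27b liver (exact conditional binomial 95% interval -1.88 to -0.62), -2.88 in the siRNC liver (-3.91 to -1.93) and -2.53 in the saline liver (-3.49 to -1.72). In the miR-27b liver this is a 2.35-fold, in the siRNC liver a 7.36-fold and in the saline liver a 5.79-fold lower level. Of all kept genes, 4.06%, 3.56% and 3.83% were at least 2-fold lower in these 3 comparisons, and 2.44%, 0.21% and 0.35% were at least as far below naive as Fgf21. The naive library enters all 3 folds. Of all kept genes, 1.12% were, like Fgf21, 2-fold or more below naive in each of the 3 hepatectomised livers.

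Within the hepatectomised livers, Fgf21 was higher in the miR-27b liver than in the siRNC liver by a log2 fold of 1.64 (95% interval 0.59 to 2.75) and than in the saline liver by 1.30 (0.37 to 2.33). Of all kept genes, 3.05% were at least 2-fold higher in the miR-27b than in the siRNC liver and 2.42% than in the saline liver. None of the 6 genes was 2-fold lower in either comparison, where 2.43% and 1.91% of kept genes were. Between the siRNC and saline livers no member was past 2-fold in either direction (2.35% of kept genes were higher and 1.85% lower), and the log2 fold of Fgf21 was -0.35 (-1.58 to 0.95), a difference not detectable at this depth. If the steps were 2 times finer, the same ratios would stand for 16 reads in the miR-27b, 5.4 in the siRNC, 7.1 in the saline and 38.4 in the naive library, and the interval of the miR-27b against the saline liver would widen to -0.05 to 2.84.

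Klb, which encodes the coreceptor that FGF21 needs, varied little. Its values were -0.04 in the miR-27b, 0 in the siRNC, 0.23 in the saline and 0.38 in the naive library, a range of 0.42. The naive library was the highest, and the log2 folds against it were -0.42, -0.38 and -0.15 in the miR-27b, siRNC and saline livers. All were within 2-fold, and 19.62% of kept genes lay at least as far below naive in the miR-27b liver. The Fgf21 to Klb ratio differed from naive by -0.81 in the miR-27b, -2.5 in the siRNC and -2.38 in the saline liver on the log2 scale. In the miR-27b liver the ratio was within 2-fold of naive, where Fgf21 itself was not (-1.24). However, -0.81 lies within the counting interval of Fgf21 alone (-1.88 to -0.62), and the reads of Klb were not recovered. The ratio and the fold of Fgf21 can therefore not be told apart here.

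Fgfr1, the receptor best known to carry the FGF21 signal, was the member that differed in the opposite direction. Its values were 0.47 in the miR-27b, -0.23 in the siRNC, 0 in the saline and -1.13 in the naive library. The naive library was below the other 3, which spanned 0.70. The log2 fold against naive was 1.60 (3.03-fold higher) in the miR-27b liver, 0.90 (1.87-fold) in the siRNC liver and 1.13 (2.19-fold) in the saline liver. The share of kept genes at least 2-fold higher than naive was 8.16% in the miR-27b, 6.0% in the siRNC and 5.79% in the saline liver, and 3.16%, 7.2% and 4.66% were at least as far above naive as Fgfr1. Among the hepatectomised livers, Fgfr1 differed by 0.70 between the miR-27b and siRNC livers, 0.47 between the miR-27b and saline livers and -0.23 between the siRNC and saline livers, all within 2-fold.

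In bulk liver RNA, fewer cells of a type and less RNA per cell cannot be told apart, and markers of non-parenchymal cells differed in the same direction as Fgfr1. All 9 kept macrophage markers, among 10 listed, were lowest in the naive library, with medians of 0.33 in the miR-27b, -0.07 in the siRNC, 0.14 in the saline and -1.26 in the naive library. The 8 kept of 10 endothelial markers had medians of 0.08, -0.14, 0 and -0.81 in the same order, with 6 lowest in naive, while Stab1 and Flt1 were listed at 0 in all libraries. The 11 kept of 12 stellate cell and fibroblast markers had medians of 0.21, 0.51, -0.21 and -0.52, with 7 lowest in naive. Summed marker levels could not be formed, since the values hold no level. Over all kept genes, 29.6% were lowest in naive. The part of these cells in the Fgfr1 difference was not tested.

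**Figure D2:**
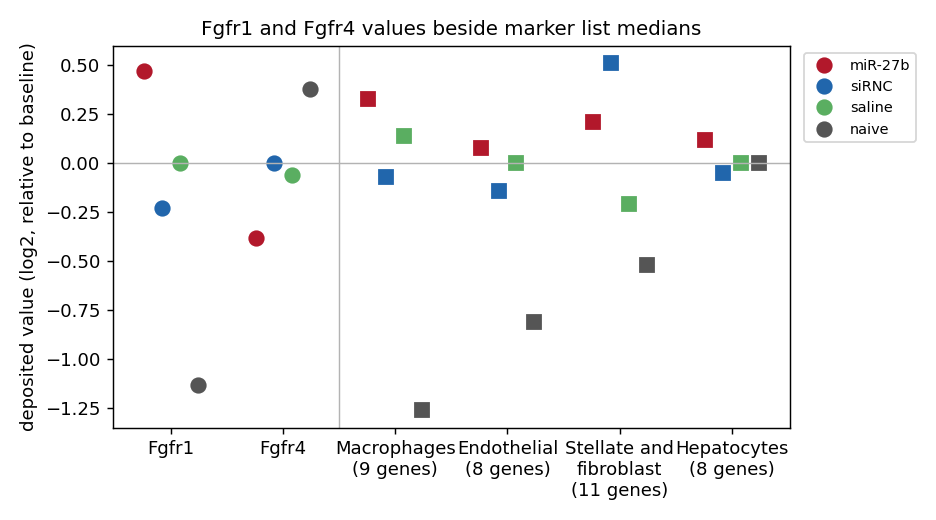
Deposited log2 values of Fgfr1 and Fgfr4 (circles) beside the median value of 4 marker lists (squares) in each library, with colours for the 4 libraries. The naive library is lowest for Fgfr1 (-1.13), the macrophage median (-1.26) and the endothelial median (-0.81), and highest for Fgfr4 (0.38).

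Fgfr4, the main FGF receptor of hepatocytes, was lower in the hepatectomised livers within 2-fold. Its values were -0.38 in the miR-27b, 0 in the siRNC, -0.06 in the saline and 0.38 in the naive library. Naive was the highest library and miR-27b the lowest, with the siRNC and saline libraries 0.06 apart. The log2 folds against naive were -0.76, -0.38 and -0.44 in the miR-27b, siRNC and saline livers, and 7.41% of kept genes lay at least as far below naive in the miR-27b liver. The ratio of Fgfr1 to Fgfr4 was higher than in naive by 2.36 in the miR-27b, 1.28 in the siRNC and 1.57 in the saline liver on the log2 scale. The 8 hepatocyte markers had medians between -0.05 and 0.12 in the 4 libraries.

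Fgfr3 separated the livers differently from the other members. Its values were -0.14 in the miR-27b, -0.31 in the siRNC, 0.48 in the saline and 0.48 in the naive library. The saline and naive libraries were level, and both livers given cells lay below them, by -0.62 and -0.78 against naive and by the same amounts against saline. In the comparison with saline, 6.44% and 3.73% of kept genes lay at least as far below in the miR-27b and siRNC livers. Fgfr2, whose epithelial splice form binds the stromal factors FGF7 and FGF10, had values of -0.02 in the miR-27b, 0.34 in the siRNC, -0.14 in the saline and 0 in the naive library. It was highest in the siRNC library, 0.48 above saline, and the naive value lay within the range of the others. The table gives 1 row per gene, so the splice forms of the receptors are not resolved.

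**Figure D3:**
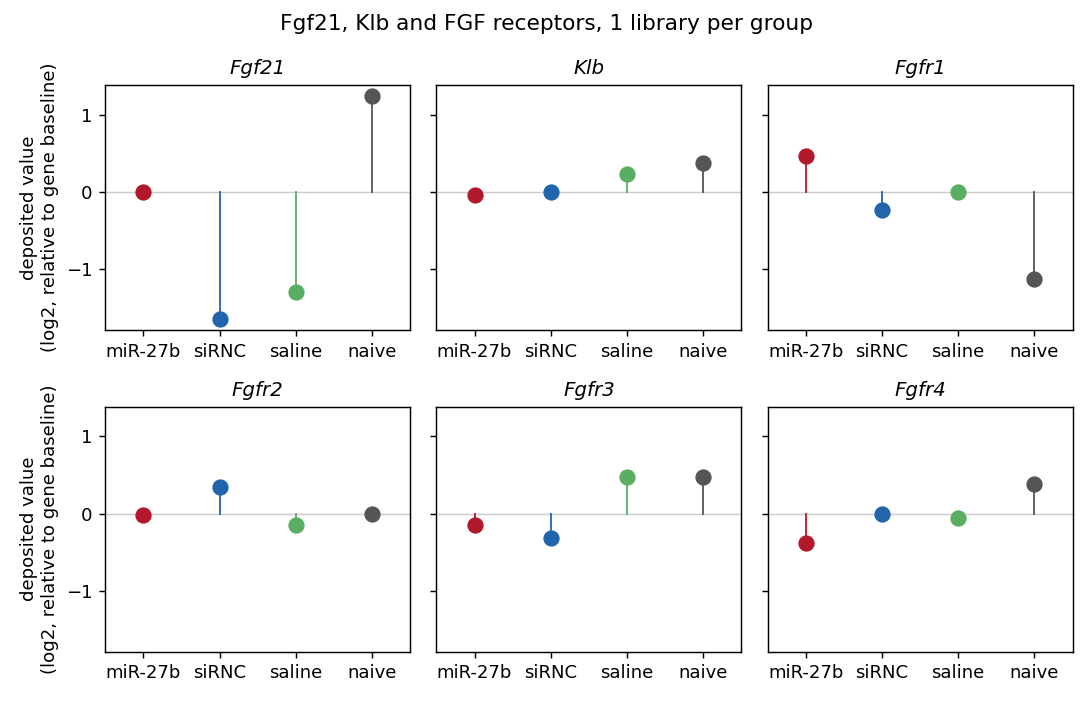
Deposited log2 values (y axis, relative to each gene's own baseline) of the 6 genes in the 4 libraries (x axis), 1 library per group. Fgf21 spans 2.88 and is highest in naive, Fgfr1 spans 1.60 and is lowest in naive, and the other 4 genes span 0.42 to 0.78.

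Of the 36 log2 folds (6 genes in 6 comparisons), 7 were past 2-fold, 4 higher and 3 lower, and these belonged to Fgf21 (5) and Fgfr1 (2). Over all kept genes, 2.35% to 8.16% were at least 2-fold higher and 1.85% to 4.06% lower, depending on the comparison. The 6 comparisons reuse the same 4 libraries, so these folds are not independent of each other. Klb, Fgfr2, Fgfr3 and Fgfr4 were within 2-fold in every comparison. Their reads could not be recovered. The binary rounding of their stored values points to at least 16 normalised reads, with Fgfr1, whose reads were not recovered either, in a higher class. This is a rough guide only. Of 2308 recovered genes with a mean below 10 reads, 1134 would also meet the rule for 16, so these levels are not certain. For a pair of libraries with 16 reads each, counting alone would give an SD of 0.51 on the log2 scale, and of 0.13 at the lower bound of the higher class. As the level of Klb, Fgfr2, Fgfr3 and Fgfr4 within their class is not known, whether their differences exceed counting error could not be settled.

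**Figure D4:**
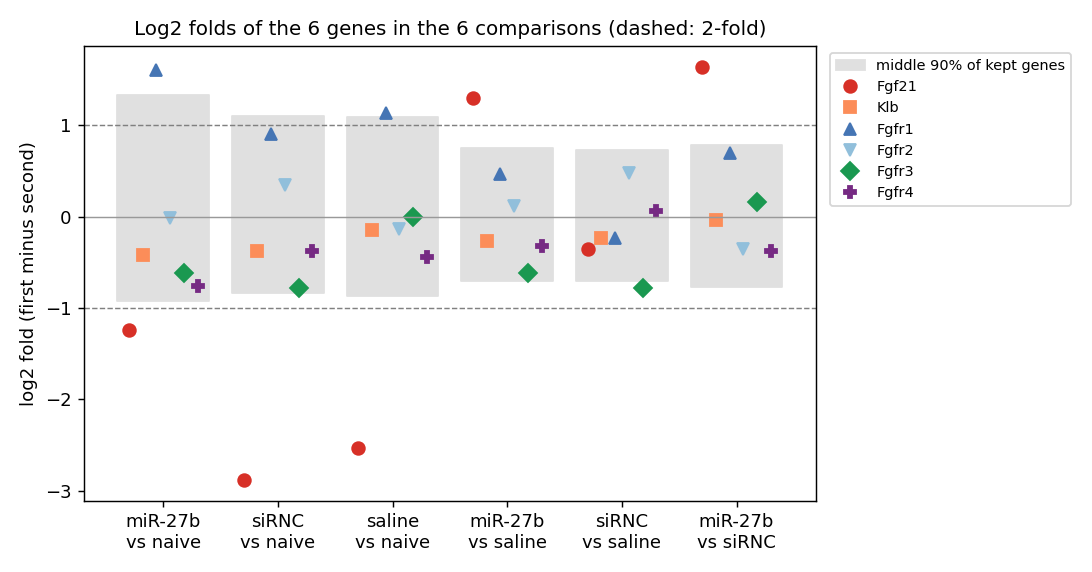
Log2 fold (y axis, first library minus second) of the 6 genes in the 6 comparisons (x axis), with grey bars for the range of the middle 90% of the 9679 kept genes and dashed lines at 2-fold. Fgf21 lies outside the grey bar in all comparisons but siRNC against saline (-0.35), Fgfr3 lies below it in siRNC against saline (-0.78), and Fgfr1 lies above it in the miR-27b (1.60) and saline (1.13) livers against naive.

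The other ligands of the family gave few reads. Of 13 ligand genes in the table other than Fgf21, 9 were listed at 0 in all libraries, among them Fgf2 and Fgf7, and the other 4 were below the filter. Fgf1, the ligand that binds all FGF receptors, had 7.0 reads in the miR-27b, 6.0 in the siRNC, 2.0 in the saline and 9.0 in the naive library, Fgf22 had 2.9 in the siRNC, 2.0 in the saline and 2.8 in the naive library, and Fgf10 and Fgf23 had 1.0 read in 1 library. A 0 does not show that a gene was silent, as genes in general use such as Braf were also listed at 0 throughout. Kl, which encodes the klotho coreceptor of FGF23, was listed at 0 as well.

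Among other coreceptors and binding proteins, 6 of 13 genes were kept. Gpc3, which encodes an oncofetal heparan sulphate proteoglycan, was at least 2-fold higher in all 3 hepatectomised livers, with 8.0 reads in the miR-27b, 13.0 in the siRNC, 26.0 in the saline and 2.0 in the naive library. Of all kept genes, 3.5% were 2-fold or more above naive in each of these 3 livers. Gpc3 passed the filter only through the libraries where it was high, so its place among the kept genes is tied to this difference. With so few reads the 95% interval of the log2 fold against naive was -0.29 to 5.3 in the miR-27b, 0.52 to 5.85 in the siRNC and 1.61 to 6.73 in the saline liver. Fgfrl1, a receptor of the family without a kinase domain, had values of -0.34, 0.64, 0.07 and 0 in the same order, and was lower in the miR-27b than in the siRNC liver by 0.98 (95% interval -1.58 to -0.44 for the log2 fold). Sdc4, which encodes the proteoglycan syndecan 4, was higher in the miR-27b than in the siRNC liver, at 0.73 against -0.77. It was the 1 gene of the 6 past 2-fold there, where 3.05% of all kept genes were higher.

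The adaptors and kinases that relay the signal were close to level. Of 18 kept genes in that list, 1 was at least 2-fold higher and none 2-fold lower than naive in each of the miR-27b, siRNC and saline livers, and the list medians were -0.02, -0.07 and -0.01. A count of 1 in 18 is near the share of all kept genes higher than naive in these livers (8.16%, 6.0% and 5.79%). Frs2, the main FGF receptor adaptor, was at 0, 0.20, 0 and 0 in the miR-27b, siRNC, saline and naive libraries. The kinase gene Mapk3 was 0.29 above naive in the miR-27b liver. The members past 2-fold were Stat3, a transcription factor of cytokine signalling, which stood at 1.65 in the miR-27b and 1.29 in the saline liver against naive, and Pik3r1, a regulatory subunit of PI3 kinase, which was 1.54 higher in the siRNC than in the saline liver and stood at 1.16 in the siRNC liver against naive.

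Feedback inhibitors and target genes of FGF signalling went different ways. Of 7 kept genes, 3 were at least 2-fold higher than naive in the miR-27b liver, 1 in the siRNC and 1 in the saline liver, and 0, 1 and 1 were 2-fold lower. Over all kept genes, 8.16%, 6.0% and 5.79% were higher and 4.06%, 3.56% and 3.83% lower. Etv5, an ETS factor induced by FGF signalling, had 38.0 reads in the miR-27b, 45.0 in the siRNC, 48.0 in the saline and 16 in the naive library. Its log2 folds against naive were 1.28 in the miR-27b liver (95% interval 0.40 to 2.22) and 1.5 in the saline liver (0.65 to 2.41), with the 3 hepatectomised libraries close together. Dusp6, the phosphatase that inactivates ERK, was likewise lowest in naive, at 0.32, 0, -0.04 and -0.87. Egr1, an immediate early factor, did not share that order, at 1.47 in the miR-27b, -1.42 in the siRNC, -1.71 in the saline and 0 in the naive library, and Spry4, a Sprouty inhibitor, was within 2-fold throughout. These genes respond to other growth factors and cytokines as well.

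Regulators of Fgf21 transcription were examined next. Ppara, which encodes the fasting-activated nuclear receptor PPAR alpha, had values of 0.40 in the miR-27b, -0.12 in the siRNC, 0 in the saline and 0.40 in the naive library, so that it was higher in the naive and miR-27b libraries, within 2-fold. Atf4, the transcription factor of the amino acid response, was level, at 0.05, -0.01, 0 and -0.06. Of the 19 kept genes in the list, 2, 2 and 2 were 2-fold or more above naive and 5, 2 and 3 as far below it in the miR-27b, siRNC and saline livers. The shares of all kept genes were 8.16%, 6.0% and 5.79% above and 4.06%, 3.56% and 3.83% below. In the miR-27b, siRNC and saline livers against naive, the coactivator Ppargc1a stood at 2.96, 1.10 and 1.83 and the clock repressor Nr1d1 at 1.49, 1.88 and 1.89. In the same order, the oestrogen receptor Esr1 stood at -1.72, -1.18 and -1.81, past 2-fold in each. The clock factor Bhlhe40 (-1.64, -0.99 and -2.25) and the antioxidant factor Nfe2l2 (-1.12, -0.69 and -1.20) were within 2-fold in the siRNC liver, Bhlhe40 only just. Mlxipl, which encodes the glucose sensor ChREBP, was at -1.02, -0.80 and -0.83. Stat5b was the 1 gene of the 19 with the same order of libraries as Fgf21, an order that 4.6% of all kept genes had. Its values were 0.49 in the miR-27b, -0.43 in the siRNC, 0 in the saline and 0.58 in the naive library. Against naive it stood at -1.01 in the siRNC liver.

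Genes under PPAR alpha, of which Fgf21 is one in fasting, included 2 that shared its order of libraries with large differences. Angptl4, an inhibitor of lipoprotein lipase, had values of 0 in the miR-27b, -2.70 in the siRNC, -0.78 in the saline and 0.41 in the naive library. Plin2, a lipid droplet coat protein, had values of 0.10, -1.23, -0.41 and 1.0. As with Fgf21, naive was the highest and siRNC the lowest library in each, and the miR-27b library lay above saline. Of the 20 kept genes in the list, 3 had this order (the other was Cyp4a2, with a range under 2-fold), against 4.6% of all kept genes, and 12 of 20 were lowest in siRNC, against 22.3%. Of the 8 hepatocyte markers, 5 were also lowest in siRNC, and their part in the order of the PPAR alpha genes was not tested. The siRNC library is shared by all these genes, so they are not independent of each other.

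In the miR-27b against the siRNC liver, 4 of the 20 PPAR alpha genes were at least 2-fold higher and none lower, with a list median of 0.15, where 3.05% of all kept genes were higher and 2.43% lower. The hepatocyte markers were also higher in this comparison, 7 of 8 above 0 with a median of 0.25 and none past 2-fold. The 4 PPAR alpha genes were Angptl4 (2.70), Plin2 (1.34), Pdk4, a kinase that blocks glucose oxidation (1.32), and the fatty acid hydroxylase Cyp4a8 (1.05), whose reads may be shared with its close paralogs. Of the genes of mitochondrial fatty acid oxidation, Acadm stood at 0.03, Hadha at -0.01 and Cpt1a at 0.77 in this comparison. Against naive, none of the 20 genes was past 2-fold in the miR-27b liver, and 2 were lower in each of the siRNC and saline livers. These were Angptl4 and Plin2.

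ATF4 target genes did not move together. Of 14 kept genes, 2 were at least 2-fold higher and 1 lower than naive in the miR-27b liver, 1 higher and 2 lower in the siRNC liver, and 4 higher and 3 lower in the saline liver. The shares of all kept genes in these livers were 8.16%, 6.0% and 5.79% higher and 4.06%, 3.56% and 3.83% lower. Asns, which makes asparagine, had 54.0 reads in the miR-27b, 66.3 in the siRNC, 77.0 in the saline and 23 in the naive library, so naive was the lowest. Trib3, Psat1 and Nupr1 were also higher in the saline liver, at 1.62, 1.03 and 1.03. Gdf15, which encodes another stress-induced hormone, was lower in all 3 hepatectomised livers, at -0.37 in the miR-27b, -0.15 in the siRNC, 0 in the saline and 2.23 in the naive library, and Sesn2 (-1.49) and Ddit4 (-1.13) were lower in the saline liver. Nupr1, whose promoter holds the same element as Fgf21, had 201.0 reads in the miR-27b, 89.0 in the siRNC, 150.0 in the saline and 69.0 in the naive library. Its order therefore differed from that of Fgf21, with naive the lowest, although it too was higher in the miR-27b than in the siRNC liver, by 1.25 (95% interval 0.88 to 1.62).

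**Figure D5:**
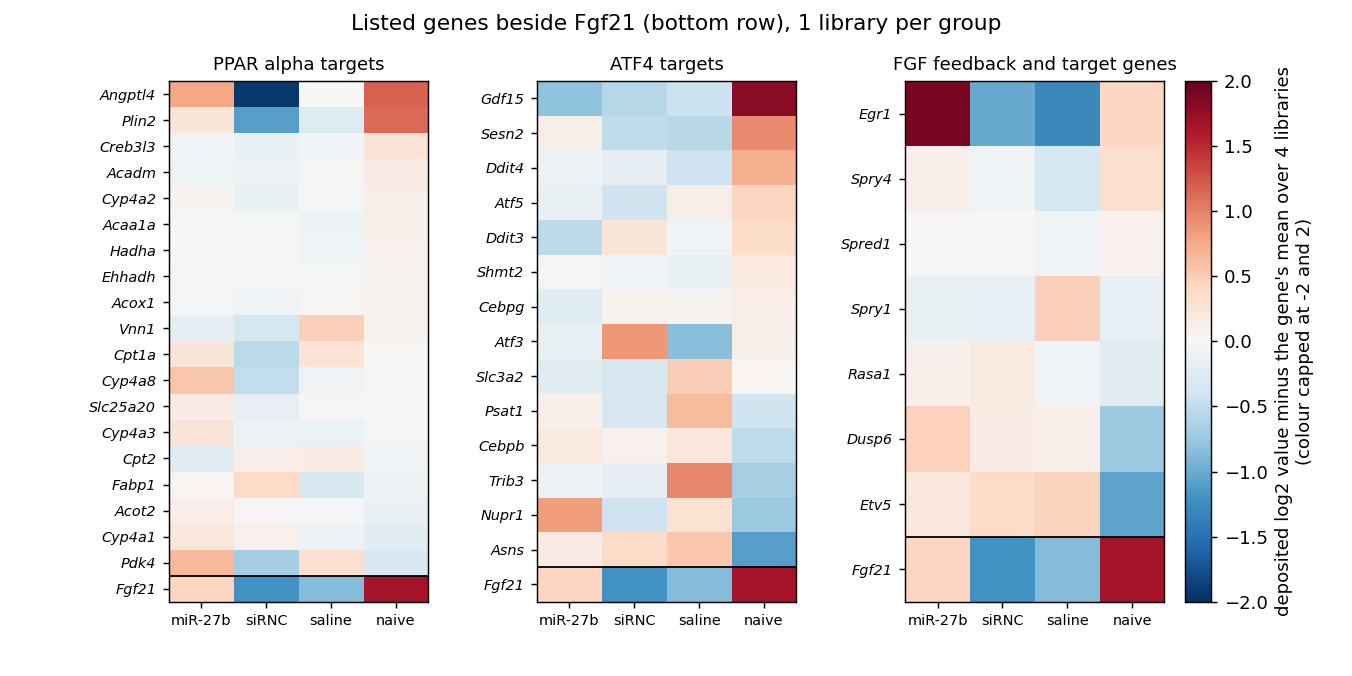
Deposited log2 values minus each gene's mean over the 4 libraries (colour, capped at -2 and 2) for kept PPAR alpha targets (1 is not shown), ATF4 targets and FGF feedback and target genes, with Fgf21 in the bottom row of each panel. Angptl4 and Plin2 share the order of libraries of Fgf21, though not the sizes of its differences, whereas Asns and Etv5 are lowest in the naive library.

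Genes of ChREBP and the glucose response followed another order. Of 14 kept genes, 4 were at least 2-fold higher in the siRNC than in the saline liver and 1 lower, where 2.35% of all kept genes were higher and 1.85% lower. The lipogenic genes Pnpla3 (3.58) and Fasn (2.13) were higher, whereas G6pc, the last enzyme of glucose release, was lower (-1.65). In the miR-27b against the saline liver 3 of the 14 were higher and none lower, against 2.42% and 1.91% of all kept genes. Pnpla3 stood at 3.12, Fasn at 1.92 and G6pc at 0.56 there. The list median was 0.58 in that comparison and 0.23 in the siRNC against the saline liver. G6pc shared the order of Fgf21, at 0.07 in the miR-27b, -2.14 in the siRNC, -0.48 in the saline and 0.54 in the naive library.

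On the FGF15/19 and FGFR4 branch, 7 of 12 listed genes were kept, and 3, 2 and 1 were at least 2-fold higher than naive in the miR-27b, siRNC and saline livers, with none lower. Of all kept genes 8.16%, 6.0% and 5.79% were that far above naive, so that 1 of 7 in the saline liver says little about the list. Cyp7a1, which catalyses the rate-limiting step from cholesterol to bile acids and is repressed by this branch, had values of 0.12 in the miR-27b, 0.78 in the siRNC, -1.5 in the saline and -1.9 in the naive library, and was high in both livers given cells. Cyp7b1, an oxysterol hydroxylase, had 52, 50, 46 and 17 reads in the same order. Nr0b2, which encodes the repressor SHP, was at 0.92, 0.16, -0.04 and -0.10, and Cyp8b1, the sterol hydroxylase that sets the cholic acid share, at 0.14, -0.04, -0.25 and 0. Fgfr4 (-0.38, 0, -0.06 and 0.38) thus differed less between the libraries than Cyp7a1 did.

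Among genes linked to FGF21 action and clearance, Igfbp1, which encodes an IGF-binding protein that FGF21 induces in mouse liver, had values of 1.88 in the miR-27b, -0.62 in the siRNC, 0.83 in the saline and -1.04 in the naive library. It was lowest in naive, where Fgf21 was highest, and like Fgf21 it was higher in the miR-27b than in the siRNC liver (2.50). Lpin1, a phosphatidate phosphatase and coactivator, was at 2.38, -0.02, 2.38 and 0. Socs2, an inhibitor of growth hormone signalling, was at -1.57, 0, 0.18 and -1.19. Fap, which encodes the protease that inactivates human FGF21, was listed at 0.

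The kept genes nearest to Fgf21 over the 4 libraries, by Euclidean distance between values centred on each gene's mean, were Cdca3 (distance 0.387), Ect2 (0.439), St8sia1 (0.612), Mki67 (0.716) and RGD1562865 (0.744), the last listed by RefSeq as Bach2. Cdca3 and Ect2 act in mitosis and cell division, Mki67 encodes the proliferation marker Ki-67, St8sia1 a sialyltransferase of gangliosides and Bach2 a transcriptional repressor. In each of the 5, naive was the highest library and miR-27b the second. As the 5 were picked for closeness to Fgf21, that shared order was largely set by the choice and tests nothing. The mean normalised reads of Cdca3 and RGD1562865 were close to the lower limit of the filter. Nearest to Fgfr1 were Ifitm1 (0.069), Flna (0.071) and Tlr4 (0.082), which encode an interferon-induced membrane protein, an actin cross-linker and the receptor of bacterial endotoxin. With 4 libraries such likeness is a description only.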

How the data were processed

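Liver mRNA was prepared with TruSeq kits after poly(A) selection, per the labels' protocols, giving 4 libraries. The values deposited by the authors are log2 values, named normalized per the file headers; the submitters' processing notes name DESeq and the build rn5, and the sources used here name no aligner or counter. The members and gene lists were chosen with earlier results of these data known. Log2 folds are differences of deposited values without a pseudocount. The values fit reads divided by size factors, raised to at least 1, in log2 and less a baseline per gene, at which a middle library stands in 77.3% of 12874 genes not all at 0.

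The worth of 1 read came from genes seen in 1 library. Reads in whole numbers or in fixed fractional steps were searched up to 200 reads in the lowest library and accepted where under 0.01 chance solutions were expected. This gave reads for 3952 genes (30.7%). In a simulation of 1500 genes, 88.5% of recovered sets were right. The simulated reads were made with the same steps as the search, so the simulation could not test the step size. Of the genes in 1 library with reads that were not whole, 58.0% lay on such steps (within 0.002 of a step). A gene was kept with a mean of at least 10 normalised reads or, without recovered reads, where the binary places of all but 1 value pointed to 16 or more. Of 2308 recovered genes below 10 reads, 1134 would also meet that second rule, so some kept genes are low. Where reads were recovered, they were rounded to whole numbers for exact intervals, which cover counting error only (PCR copies are not independent molecules). Genes named are the members, the listed genes with the largest differences or past 2-fold, and the nearest genes (5 for Fgf21, 3 for Fgfr1); some that qualify are left out for length, and Fgf1, Frs2, Mapk3, Spry4, Ppara, Atf4, Mlxipl, Acadm, Hadha, Cpt1a, Cyp8b1 and genes listed at 0 were named after their values were seen. Tools were Python 3.11.15, NumPy 2.4.6, pandas 2.3.3, SciPy 1.17.1 and matplotlib 3.10.9. Promoter sequences are from RefSeq (GRCr8), matched by gene ID for 5 of the 6 members. Some listed genes are counted but not reported by name here.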

Additional observations from a re-analysis of the deposited data

How the results depend on the processing

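No paired analysis was possible because each group has 1 library and the labels give no replicate numbers. The 36 log2 folds of the 6 genes kept their direction where past 2-fold, with the median of all kept genes subtracted and with pseudocounts of 1 and 5. Those of Fgf21 also stayed within their 95% intervals for counting error. The other members have no such interval, as their reads were not recovered. For these genes the pseudocount was added at the bottom of an assumed level class. With a pseudocount of 5 the log2 fold of Fgf21 was -1.12 in the miR-27b, -2.41 in the siRNC and -2.17 in the saline liver against naive, 1.29 in the miR-27b against the siRNC liver and 1.05 against the saline liver. Recovered reads divided by 2, an alternative added after seeing the data, widen the Fgf21 intervals to between -2.16 and -0.34 for miR-27b against naive and between 0.24 and 3.55 for miR-27b against siRNC.

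The 12 counts of genes past 2-fold all moved by over 1.5 times without the filter and with the stricter one. Part of this is set size, with 9679 genes kept, 12874 without the filter and 3109 with the stricter one. As shares in that order, genes 2-fold or more above naive were 8.16%, 12.7% and 5.79% in the miR-27b liver. They were 6.0%, 8.89% and 4.02% in the siRNC liver and 5.79%, 8.48% and 3.8% in the saline liver. Kept genes 2-fold or more above naive numbered 790 in the miR-27b, 581 in the siRNC and 560 in the saline liver, against 1635, 1145 and 1092 without the filter and 180, 125 and 118 with the stricter one; those as far below numbered 393, 345 and 371, against 789, 797 and 850 and against 82, 65 and 75. In the miR-27b against the siRNC liver 295 were higher and 235 lower, against 919 and 573 without the filter and 54 and 41 with the stricter one. With 1 library per group none could be left out in turn. Without the filter, 37 list counts stayed within 1.5 times and 23 moved further. By Pearson correlation in place of distance, none of the 5 genes nearest to Fgf21 was the same.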
